A study of Homo sapiens with 4 samples.

Results

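The genes described here are 9 proneural basic helix-loop-helix (bHLH) transcription factors, chosen by symbol: NEUROG1, NEUROG2, NEUROG3, NEUROD1, NEUROD4, ATOH1, OLIG2, NHLH1 and NHLH2. All 9 were found among the 62696 genes of the count tables. The libraries came from NT2 (NTERA-2) cells, a human embryonal carcinoma line that can be driven to form neurons. One group, labelled wild type, carried an empty vector and had 1 library, called the control below. The other carried the label HYDIN2 knockdown and had 3 libraries, numbered as replicates 1 to 3 and written KD1, KD2 and KD3 below. HYDIN2 is a partial copy of the cilia gene HYDIN. The labels do not state how the knockdown was made, nor whether its replicates were separate cultures, clones or constructs. The count columns are headed with other names, a LacZ control and sets of GKAP_KIF27, so each library was placed by its sample title.

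Proneural factors bind DNA as dimers with the broadly expressed E proteins, at short sites called E-boxes, and start neuronal differentiation. They switch on Notch ligands in the cell that expresses them, and Notch signalling raises HES repressors in its neighbours, which hold the proneural genes down. ID proteins bind E proteins and keep them from DNA. The neurogenins act first in a progenitor, the NEUROD and NHLH factors follow in young neurons, ATOH1 specifies cerebellar granule cells and inner ear hair cells, and OLIG2 marks progenitors of motor neurons and oligodendrocytes.

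Library totals ran from 25181737 counts in the control to 62904698 in KD1. Of the 25 nonzero counts of the 9 genes, 22 were even, against 65.2% to 68.0% of the nonzero counts of all genes in a library. Whether both mates of a pair were counted is not given in the sources used here. Counting intervals were computed on counts divided by 2, called read pairs below, which makes them wider than on the counts as deposited. HYDIN2 itself had 0.50 CPM (counts relative to the scaled library total) in the control and 2.41, 1.88 and 0.352 CPM in KD1, KD2 and KD3. The value of KD3 rests on 11 counts against 12. As a partial copy, HYDIN2 can share reads with HYDIN, so its level is uncertain. By these counts the targeted gene was not lower in KD1 and KD2, and each direction below is that of a library labelled knockdown. KD3 stood apart from the other labelled knockdown libraries: 13.1% of 15880 genes were at least 2-fold lower in it than in both others, and 6.2% at least 2-fold higher. Embryonal carcinoma markers were present in all 4 libraries, 8 of 8 at 1 CPM or more, with POU5F1 at 42.8 CPM in the control and 35.9, 38.5 and 19.4 CPM in KD1, KD2 and KD3. DNMT3B of this list, a DNA methyltransferase, had 795 CPM against 340, 350 and 349 CPM. It was at least 2-fold lower in each labelled knockdown library, as were 2.72% of 15880 genes.

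The E-boxes near the start sites of these genes are shown because members of the family can act on one another through such sites. Of the 9 genes, 8 matched the RefSeq promoter table (GRCh38.p14), NHLH2 with a pair of start sites, which gave 9 windows of the 250 bases before a start. The motif CANNTG, which reads the same on both strands, was found in 6 of the 9 windows and in 61.8% of 35116 promoter windows of that length. Each line gives a stretch around a match, 5′ to 3′ on the gene's strand, with the E-box in capitals.
NHLH1, chr1:160366851-160366876, plus strand: gcatggagaaCAGATGtccctgctcc
NHLH2, first start, chr1:115841248-115841273, minus strand: cacactgtgaCAGATGtcaagtccaa
NHLH2, first start, chr1:115841330-115841355, minus strand: aactgcttttCAATTGttatatttta
NHLH2, second start, chr1:115840766-115840791, minus strand: ggggagatatCAGCTGaacaaagcct
NEUROD4, chr12:55019848-55019873, plus strand: aggagcctttCAAGTGggcgtgtctt
NEUROD4, chr12:55019918-55019943, plus strand: cctccctggtCAGCTGggagagcaat
NEUROG3, chr10:69573557-69573582, minus strand: gtccggaatcCAGCTGtgccctgcgg
ATOH1, chr4:93828503-93828519, plus strand: aCATATGaatctgacga

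The NHLH1 window and that of the first start of its paralog NHLH2 held the E-box CAGATG, 210 and 137 bases before the start, and the window of the second NHLH2 start did not. On either strand, that word occurred in 12.2% of all windows. The word CAGCTG, which is contained in the search for CANNTG, occurred in 14.0% of all windows and before NHLH2, NEUROD4 and NEUROG3. Both NHLH2 windows lie inside its longest GENCODE transcript, which begins further upstream. No CANNTG was present in the windows of NEUROG1, NEUROG2 and NEUROD1. The NHLH windows were also poor in CpG, with an observed to expected ratio of 0.173 for NHLH1 and of 0.0926 and 0 for NHLH2. Those of the neurogenins ran from 0.70 to 0.984, against a median of 0.558 over all windows.

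Of the 9 genes, 6 were below 1 CPM in every library: NEUROG1, NEUROG2, NEUROG3, NEUROD1, NEUROD4 and ATOH1. They include the neurogenins, which start the cascade. The other 3, OLIG2, NHLH1 and NHLH2, reached 1 CPM or more in at least 1 library. Where no read was counted, a floor of 6 counts (3 read pairs) applied, which corresponds to 0.25 CPM in the control and to 0.0964, 0.101 and 0.192 CPM in KD1, KD2 and KD3. Intervals are 95%, and intervals and floors cover counting error only.

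**Figure D1:**
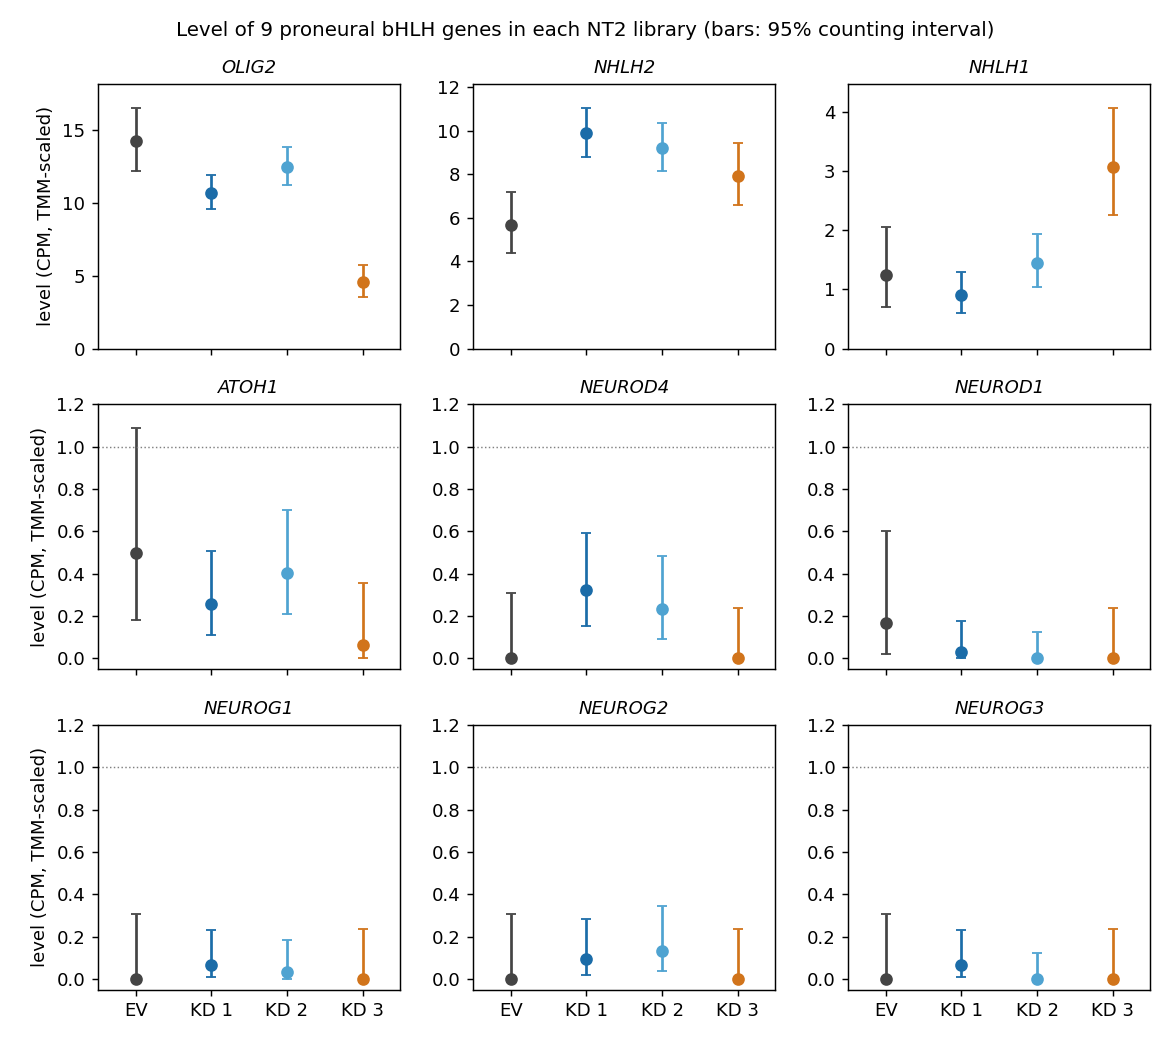
Level of each of the 9 genes in the control (EV) and the 3 libraries labelled HYDIN2 knockdown (KD 1 to KD 3), in TMM-scaled CPM, with exact Poisson 95% counting intervals as bars. The dotted line in the lower 6 panels marks 1 CPM, which none of those genes reached, while OLIG2 lay between 4.55 and 14.2 CPM.

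The neurogenins were at the limit of detection. NEUROG1 (ENSG00000181965.6; chromosome 5, 135534282 to 135535949, minus strand of GRCh38) had 0 counts in the control and 4, 2 and 0 counts in KD1, KD2 and KD3. NEUROG2 (ENSG00000178403.4; chromosome 4, 112513516 to 112516172, minus strand), the main proneural gene of cortical excitatory neurons, had 0 counts against 6, 8 and 0. NEUROG3 (ENSG00000122859.5; chromosome 10, 69571698 to 69573238, minus strand), which specifies pancreatic endocrine cells, had 0 against 4, 0 and 0. The few reads lay in KD1 and KD2, the most deeply sequenced libraries, and each replicate's level lay at or under the floor of the control. No difference was detectable at this depth. NEUROG2 shares 92 exon bases with an annotated antisense gene, which had 0 to 3 counts.

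NEUROD1 (ENSG00000162992.5; chromosome 2, 181673088 to 181680876, minus strand), a factor of neurons and pancreatic beta cells, had 4 counts in the control and 2, 0 and 0 counts in KD1, KD2 and KD3. It shares 236 exon bases on the same strand with CERKL, so its few reads are uncertain. NEUROD4 (ENSG00000123307.4; chromosome 12, 55019945 to 55030014, plus strand), which acts downstream of the neurogenins in early neurons, had 0 counts in the control, 20 and 14 in KD1 and KD2, and 0 in KD3. At 0.321 and 0.235 CPM, KD1 and KD2 were close to the floor of the control. The 95% interval of the ratio of KD1 to the control began at 0.864 and that of KD2 at 0.58, so neither excluded 1 on read pairs. On the counts as deposited they began at 1.90 and 1.33 and both excluded it. Between the labelled knockdown libraries, NEUROD4 was lower in KD3 than in KD1 (upper bound of the ratio 0.889), while the bound against KD2 was 1.33 on read pairs and 0.576 on the counts as deposited.

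ATOH1 (ENSG00000172238.6; chromosome 4, 93828753 to 93830964, plus strand) was detected in all 4 libraries at low level. It had 12 counts, or 0.50 CPM, in the control and 16, 24 and 2 counts, or 0.257, 0.402 and 0.064 CPM, in KD1, KD2 and KD3. All 3 levels were below that of the control, but every counting interval of a ratio on read pairs included 1: 0.156 to 1.80, 0.279 to 2.61 and 0.00278 to 1.06. On the counts as deposited, that of KD3 ran from 0.0139 to 0.575. KD3 had the lowest value, from 1 read pair.

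OLIG2 was the member with the highest CPM in each library except KD3. The gene (ENSG00000205927.5; chromosome 21, 33025845 to 33029196, plus strand) had 342 counts, or 14.2 CPM, in the control. The labelled knockdown replicates had 667, 746 and 142 counts, or 10.7, 12.5 and 4.55 CPM. The 3 values lay below that of the control, with KD1 and KD2 near it and KD3 far below. The ratio to the control was 0.752 in KD1 (95% binomial interval 0.623 to 0.91), 0.877 in KD2 (0.73 to 1.06) and 0.319 in KD3 (0.238 to 0.423). These intervals compare libraries, and 15.9% of 15880 genes lay at least 2-fold below the control in KD3, as OLIG2 did.

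The spread of OLIG2 among the labelled knockdown libraries was as wide as its distance from the control. KD3 was 0.424 times as high as KD1 (0.324 to 0.55) and 0.364 times as high as KD2 (0.278 to 0.47). KD1, KD2 and KD3 averaged 9.25 ± 4.17 CPM (SD, n = 3). On the log2 scale with a prior count of 2, their mean difference from the control was -0.75 ± 0.78 (SD, n = 3), smaller than its spread, and without KD3 it was -0.34. In KD3 the summed level of the 8 embryonal carcinoma markers was also lower, 3909 CPM against 6515 to 6977 CPM in the other libraries. LIN28A had the largest part of this sum, with 2844 CPM in the control and 3513, 3620 and 1912 CPM in KD1, KD2 and KD3. Of the 8, 4 were lower than the control in all 3, and SALL4 was higher (235 CPM against 300, 282 and 304 CPM). SOX2 in KD3 was near the control, with 259 CPM against 279 CPM. The part of the lower sum in the OLIG2 value was not tested. The 6 oligodendrocyte lineage markers described here summed to 29.7 CPM in the control. In KD1, KD2 and KD3 the sum was 57.4, 50.0 and 32.1 CPM. This rise rested largely on CSPG4, with log2 differences from the control of 1.67, 1.44 and 0.816. MBP was lower than the control in all 3, as OLIG2 was, with -0.11, -0.091 and -1.22. PDGFRA and MAG were higher in all 3, while MOG and SOX10 were higher in KD1 and KD2 and lower in KD3. Of the 3 that entered the 2-fold comparison 0 passed, and CSPG4 passed as higher without KD3 or with total-count scaling. Its defining factor SOX10 stayed between 0.256 and 0.803 CPM.

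NHLH1 (ENSG00000171786.6; chromosome 1, 160367067 to 160372848, plus strand) is a factor of newly formed neurons. It had 30 counts, or 1.25 CPM, in the control and 56, 86 and 96 counts, or 0.899, 1.44 and 3.07 CPM, in KD1, KD2 and KD3. KD3 was high, and the control lay between KD1 and KD2, so the groups overlapped. The ratio to the control was 2.46 in KD3 (1.35 to 4.73), while the intervals for KD1 (0.372 to 1.45) and KD2 (0.628 to 2.23) included 1. In KD3, 11.3% of 15880 genes lay at least 2-fold above the control. Within the labelled knockdown group, KD3 was 3.42 times as high as KD1 (2.10 to 5.66) and 2.13 times as high as KD2 (1.38 to 3.30). The mean log2 difference from the control, 0.34 ± 0.87 (SD, n = 3), was smaller than its spread and turned to -0.17 without KD3.

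NHLH2, the paralog of NHLH1 and known for its part in hypothalamic neurons, had the smallest spread between replicates among the 3 members above 1 CPM, on the log2 scale. The gene (ENSG00000177551.5; chromosome 1, 115836377 to 115843917, minus strand) had 136 counts, or 5.67 CPM, in the control and 616, 549 and 247 counts, or 9.89, 9.20 and 7.91 CPM, in KD1, KD2 and KD3. All 3 lay above the control, and the groups did not overlap. Ratios were 1.75 (1.34 to 2.31), 1.62 (1.24 to 2.15) and 1.40 (1.03 to 1.91). Among the labelled knockdown libraries, KD3 was 0.799 times as high as KD1 (0.643 to 0.988), and the interval against KD2 included 1 (0.69 to 1.07). The mean of 9.0 ± 1.01 CPM (SD, n = 3) gave a mean log2 difference of 0.66 ± 0.16 (SD, n = 3).

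The difference of NHLH2 moved with one processing step. After removal of the trends of the log2 difference on transcript length and GC content, it was 0.38, 0.33 and -0.00 in KD1, KD2 and KD3, a mean of 0.24. The trends used the longest annotated transcript, which for NHLH2 has 7226 nt, the most among the 9 genes. Its shortest has 855 nt, so the size of this step depends on which transcript is taken. Of the 15880 genes at a mean of 1 CPM or more, 30.1% were higher than the control in all 3 labelled knockdown libraries, as NHLH2 was, and 34.2% were lower in all 3, as OLIG2 was.

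**Figure D2:**
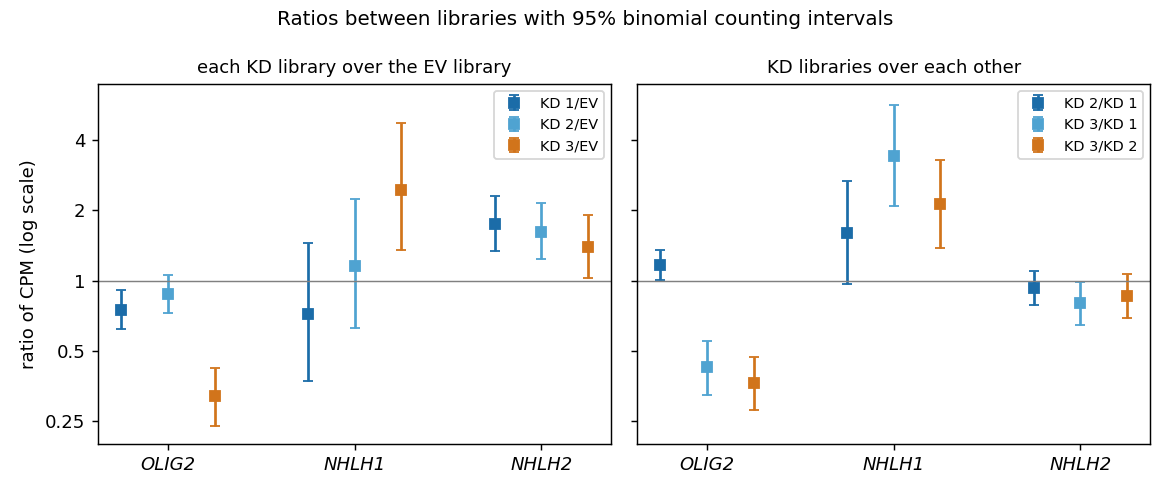
Ratios of CPM between libraries for OLIG2, NHLH1 and NHLH2 on a log axis, with 95% binomial counting intervals as bars. Left, each library labelled knockdown over the control; right, the labelled knockdown libraries over each other, where KD3 lies apart from KD1 and KD2 for OLIG2 (0.424 and 0.364) and NHLH1 (3.42 and 2.13), in opposite directions.

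Per kilobase of the longest annotated transcript, OLIG2 had 4.37 CPM per kb in the control, NHLH2 had 0.784 and NHLH1 had 0.488. The counting intervals of the latter pair overlapped (0.609 to 0.994 and 0.273 to 0.804). In KD3 the levels were 1.39 for OLIG2, 1.2 for NHLH1 and 1.09 CPM per kb for NHLH2, and all 3 intervals overlapped. Annotated transcripts run from 575 to 3262 nt for OLIG2 and from 855 to 7226 nt for NHLH2, so the order of this pair depends on which transcript the cells use. ATOH1 reached at most 0.226 CPM per kb and NEUROD4 at most 0.0813.

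The labelled knockdown libraries were then compared with the control across all genes. With 1 control library there is no replicate check on the control side. A gene was counted when it differed at least 2-fold from the control, in the same direction, in each labelled knockdown library. Of the 9 genes, 3 entered this comparison (OLIG2, NHLH1 and NHLH2) and the 6 genes below 1 CPM did not. Of those 3, 0 were counted as higher and 0 as lower. Among all 15880 genes that entered, 3.65% were higher and 2.72% lower, a share at which 0 of 3 does not stand apart. Without KD3, 0 of the 3 were counted as well, where 9.06% and 5.97% of all genes were.

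edgeR's quasi-likelihood test called 0 of 26029 genes after Benjamini-Hochberg adjustment (0% of the genes tested). Unadjusted, 3023 genes had a p under 0.05, and the DESeq2 Wald test called 404 (2.8%) of the 14422 genes it gave an adjusted p. The edgeR test takes its spread from the labelled knockdown libraries alone, so it sets 1 library against them rather than testing the conditions. It covered 5 of the 9 genes, with edgeR adjusted p-values from 0.521 for NHLH2 to 0.843 for NHLH1, and with 0 of the 5 at an unadjusted p under 0.05. KD3 decided this outcome. Without it, edgeR called NEUROD4, NHLH2 and OLIG2, with 44.7% of all 25016 genes tested called in that fit. That fit assumes that the single control library varies as little as KD1 and KD2 do between them, and for NEUROD4 the counting intervals of both ratios to the control, included 1 on read pairs and not on the counts as deposited.

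The genes around the proneural factors came from lists fixed by symbol. E proteins, the dimer partners, were abundant in all 4 libraries. TCF3 had 268 CPM in the control and 249, 239 and 282 CPM in KD1, KD2 and KD3. TCF12 had 152 CPM against 239, 237 and 169 CPM. TCF4 had 51.1 CPM against 94.7, 91.9 and 103 CPM. The TCF4 values did not overlap with that of the control and were close to each other, while those of TCF3 lay on both sides of it. TCF4 and TCF12 were higher in all 3 labelled knockdown libraries, as were 30.1% of 15880 genes. Of the 3 E proteins, 0 passed the 2-fold rule in either direction. Their median log2 difference was 0.48, against -0.02 over all genes that entered.

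**Figure D3:**
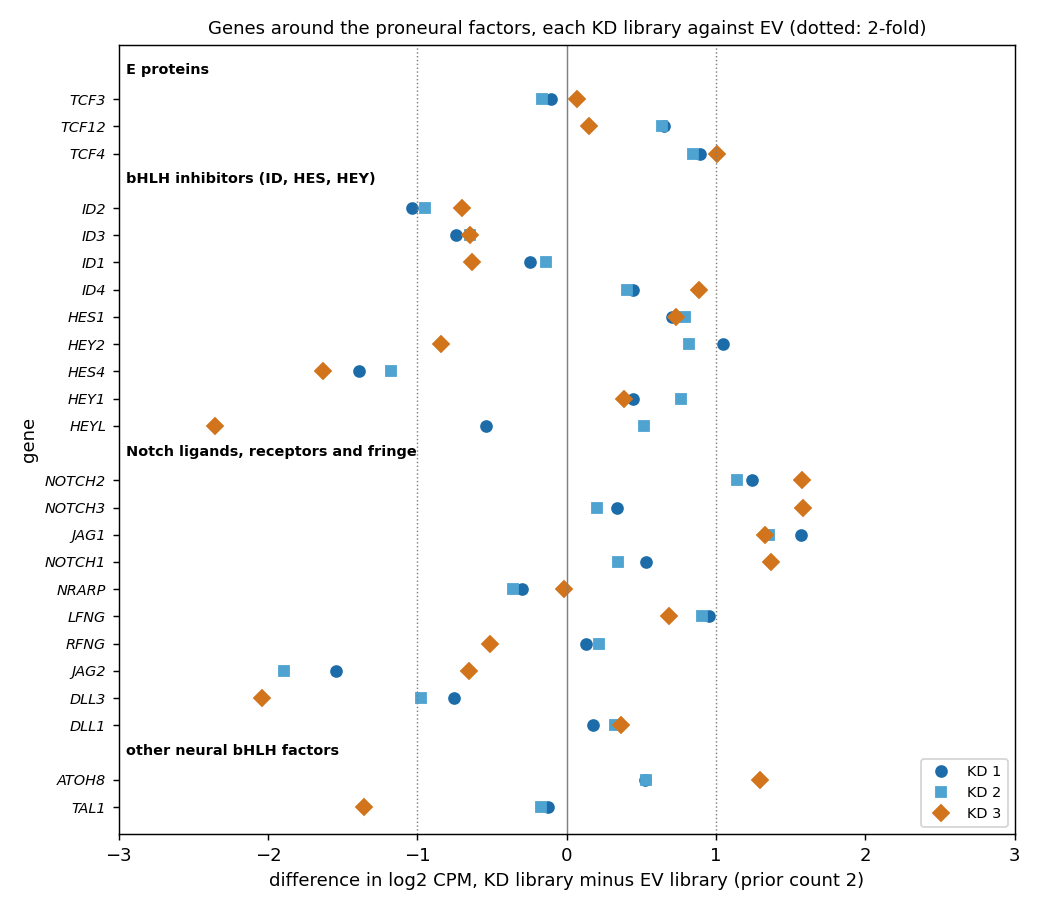
Difference in log2 CPM (prior count 2) of each library labelled knockdown (KD 1 to KD 3) from the control, for genes of 4 lists at a mean of 1 CPM or more. Each symbol is 1 library and dotted lines mark 2-fold. HES4 lies beyond the line on the lower side in all 3 libraries, NOTCH2 and JAG1 on the higher side, and the KD 3 symbols often lie away from the other pair.

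Of the 10 inhibitors of bHLH factors, 9 entered the comparison; HES5 had 0 counts in every library. HES4, a Notch-responsive repressor, fell below the 2-fold line in each labelled knockdown library, and 0 of the 9 passed as higher. Over all genes, 2.72% passed as lower and 3.65% as higher. HES4 had 11.2 CPM in the control and 4.24, 4.94 and 3.59 CPM in KD1, KD2 and KD3. HES1, the main HES repressor of proneural genes, had 38.0 CPM against 62.1, 66.0 and 63.0 CPM, a log2 difference of 0.74 ± 0.05 (SD, n = 3) that did not pass the rule. ID2 had 253 CPM against 123, 131 and 155 CPM, and ID3 had 174 CPM against 104, 111 and 111 CPM. ID1 had 72.2 CPM against 61.0, 65.5 and 46.5 CPM, while ID4 had 51.4 CPM against 69.9, 68.1 and 94.9 CPM. Of the 9 genes, 4 were lower than the control in all 3 libraries and 3 were higher, against 34.2% and 30.1% of 15880 genes. With length and GC trends removed, HES1 passed the rule as higher and HES4 no longer passed, where 2.96% of 15485 genes were higher and 1.45% lower. The median log2 difference of the 9 genes was -0.34, against -0.02 over all genes that entered. By library it was -0.24, 0.41 and -0.65 in KD1, KD2 and KD3, so its sign was not shared.

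In the Notch list, 10 of 12 genes entered, of which 2 passed as higher and 0 as lower, against 3.65% and 2.72% of all genes. NOTCH2, a receptor, had 173 CPM in the control and 409, 382 and 516 CPM in KD1, KD2 and KD3. NOTCH2 has near-identical partial copies with which it can share reads, so its level is uncertain, and it no longer passed once length and GC trends were removed. JAG1, a ligand, had 46.6 CPM against 138, 120 and 117 CPM. The ligands that proneural factors induce were low: DLL1 had 1.33 CPM against 1.51, 1.68 and 1.73 CPM, and DLL3 had 2.25 CPM against 1.32, 1.12 and 0.512 CPM. Without KD3, JAG2 was also lower, and with the trends removed LFNG passed as higher beside JAG1. The median log2 difference of the 10 genes was 0.50, against -0.02 over all genes that entered.

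Among 19 known targets of proneural factors, 16 entered, of which EBF2 passed as higher and HES6 as lower, against 3.65% and 2.72% of all genes. HES6, which promotes neurogenesis by opposing HES1, had 7.12 CPM in the control and 2.89, 3.07 and 2.37 CPM in KD1, KD2 and KD3. EBF2 had 2.25 CPM against 4.75, 4.86 and 18.3 CPM, with KD3 far above the other pair. After removal of the length and GC trends neither passed. The median log2 difference of the list was 0.21, against -0.02 over all genes that entered. In KD1, KD2 and KD3 it was 0.47, 0.50 and -0.15, so its sign was not shared, and over all genes it was 0.03, 0.05 and -0.15. KD3 decided the count: without it, 5 of 14 targets were higher (DCX, EBF2, EBF3, ELAVL4 and INSM1) and 2 were lower (CBFA2T3 and HES6), where 9.06% and 5.97% of all genes were. The lists share genes, so their counts are not separate results. DLL1, DLL3, DLL4 and MFNG are also in the Notch list, DCX and ELAVL4 are also neuron markers, and INSM1 is also a pancreatic endocrine marker. INSM1, a factor downstream of neurogenins, had 7.33 CPM in the control, 16.2 and 16.6 CPM in KD1 and KD2, and 4.67 CPM in KD3.

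The neural bHLH factors outside the 9 genes were also low. Of the 11 described here, 2 (ATOH8 and TAL1) entered the comparison and 0 passed in either direction, and 6 were below 1 CPM in every library. OLIG3 had 0.167 CPM in the control and 1.99, 1.07 and 0.256 CPM in KD1, KD2 and KD3. NEUROD6 had 0 counts in all 4 libraries. The median log2 difference of the 2 genes that entered was 0.11, between 0.78 for ATOH8 and -0.55 for TAL1.

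Markers of cell types in which the 9 genes act were measured beside them. The 10 neuron markers summed to 241 CPM in the control and to 344, 338 and 243 CPM in KD1, KD2 and KD3. INA and NEFL had the largest parts of these sums. INA had 127 CPM in the control and 164, 163 and 135 CPM in KD1, KD2 and KD3, and NEFL had 57.9 CPM against 77.1, 75.5 and 34.1 CPM. Of the 10 markers, MAP2 alone passed the rule, as higher, against 3.65% of all genes. MAP2 had 9.16 CPM in the control and 24.0, 22.8 and 34.5 CPM in KD1, KD2 and KD3, and it no longer passed with length and GC trends removed, where STMN2 did. Without KD3, 5 of 10 were higher (DCX, ELAVL4, MAP2, STMN2 and SYT1), against 9.06% of all genes. Of these, DCX and ELAVL4 are also in the target list. By direction alone, 5 of the 10 markers were higher than the control in all 3 libraries and 1 was lower, against 30.1% and 34.2% of all genes. The lower one, RBFOX3, had 17.7 CPM in the control and 12.3, 12.8 and 6.59 CPM in KD1, KD2 and KD3. STMN2, a marker of young neurons, had 0.333 CPM in the control and 2.71, 2.38 and 0.512 CPM in KD1, KD2 and KD3. The part of neuronal RNA in the levels of the proneural genes was not tested. In bulk RNA, fewer cells of a type and less RNA per cell cannot be told apart. The pancreatic endocrine list summed to 15.2 to 34.4 CPM, 0 of 2 entering genes passed (without KD3 both, CHGB and INSM1, as higher), and its markers INS, GCG and NKX2-2 had 0 counts in every library. The 7 fibroblast markers summed to 420 to 645 CPM, and DCN was at 0 in 3 libraries. THY1 had the largest part of these sums, with 362 CPM in the control and 382, 394 and 210 CPM in KD1, KD2 and KD3. Of the 6 that entered, PDGFRB passed as higher, against 3.65% of all genes. With length and GC trends removed 0 fibroblast markers passed, and without KD3 COL1A2 was also higher and COL3A1 lower.

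For the 3 members with at least 10 counts in every library, likeness to other genes was measured as the Euclidean distance over the 3 log2 differences from the control, among 14817 genes with a symbol. The nearest genes to OLIG2 were SF3B6, CUTC and WFDC2, at distances of 0.0515, 0.0617 and 0.0881. Those to NHLH1 were GS1-24F4.2, CYP1B1-AS1 and NSUN5P1, at 0.0304, 0.157 and 0.196. Those to NHLH2 were ZNF543, RNF214 and KATNAL1, at 0.0521, 0.0566 and 0.0596. Within a distance of 0.25 there were 64 genes for OLIG2, 4 for NHLH1 and 246 for NHLH2. NHLH1 thus had the fewest genes near its 3 differences, which rest on 30 to 96 counts. Genes at least 2-fold higher in KD3 than in both KD1 and KD2, as NHLH1 was, made up 6.2% of 15880. Each distance rests on 3 libraries that share 1 control.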

How the data were processed

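Raw counts per gene were deposited, 1 table for each library. STAR 2.7.11b, featureCounts 2.0.6 and DESeq2 are named with GRCh38, per the submitters' processing notes; the annotation and the strand and pair settings are not given in the sources used here. Libraries are strand-specific and depleted of ribosomal RNA, per the labels' protocols.

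Counts were scaled to CPM with TMM factors (0.953, 0.99, 0.969 and 1.09 for the control, KD1, KD2 and KD3) from edgeR 4.0.16 in R 4.3.3, computed on genes kept by filterByExpr. Factors computed on all genes (0.974, 0.965, 0.944 and 1.13) were used first and replaced after their results had been seen, to match the processing of an earlier analysis of these data; their values are given as an alternative. Genes entered the 2-fold rule at a mean of the group mean CPMs of at least 1. Log2 CPM used a prior count of 2. Intervals are exact Poisson for levels and Clopper-Pearson for ratios, on counts divided by 2. Coordinates and lengths are from GENCODE 29 on GRCh38, matched by identifier without version (58269 of 62696). edgeR's quasi-likelihood test, DESeq2 1.42.0 and voom in limma 3.58.1 used an adjusted p of 0.05. Lowess trends had a span of 0.3. The methods were tested on simulated data with the same spread set for every library and fold changes placed only in genes expressed above NHLH1. That simulation does not cover NHLH1, the members below it or a replicate that stands apart. Named genes are the 9 members, list genes past the rule (at most 4 a list), list genes needed for a count, and the 3 genes nearest in pattern; the DLL, ID, TCF, HES1, INSM1, OLIG3, STMN2 and marker values were chosen after they were seen. One gene each of the lists of other neural bHLH factors and oligodendrocyte markers is not reported here. Members and lists were chosen with earlier results of these data known. P-values rest only on the spread between the labelled knockdown libraries, which may be technical.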

Additional observations from a re-analysis of the deposited data

How the results depend on the processing

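No paired analysis was possible because the control is a single unnumbered library. The counts of 0 higher and 0 lower among the members that entered held under 13 other settings, in which 2 to 4 of the 9 genes entered, and with TMM factors from all genes, the setting used first and replaced after its results were seen. That setting gave 633 higher and 371 lower genes over all genes (63.0% higher), and mean log2 differences of 0.38 for NHLH1, 0.70 for NHLH2 and -0.70 for OLIG2. Over all genes, 580 were higher and 432 lower; these became 1605 and 1035 at a mean CPM of 0.1, 377 and 254 at 5, 1590 and 1526 with a 1.5-fold rule, and 1356 and 1074 when the rule was put on the mean of KD1, KD2 and KD3. Leaving out 1 labelled knockdown library gave 578 to 1425 higher and 517 to 939 lower genes, the highest without KD3. Trend removal gave 458 and 224. Total-count scaling gave 734 and 312, raising the higher share from 57.3% to 70.2%, and moved the median log2 difference of all genes in KD3 from -0.15 to 0.05.

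Leaving out a replicate moved the mean log2 difference of NHLH1 between -0.17 and 0.71, turning it without KD3; the cause was not tested. Those of OLIG2 ran from -1.03 to -0.34 and of NHLH2 from 0.57 to 0.71. Trend removal took NHLH2 to 0.24. With counts as deposited in place of read pairs, 8 of 54 intervals of ratios of the 9 genes no longer included 1. These were the ratios to the control of OLIG2 in KD2 (0.877), ATOH1 in KD3 (0.128), NEUROD1 in KD2 (upper bound 0.609) and NEUROD4 in KD1 and KD2 (lower bounds 1.90 and 1.33), those of KD3 to KD2 for ATOH1 (0.159) and NEUROD4 (upper bound 0.576), and NHLH1 in KD2 over KD1. edgeR's 0 calls became 404 with DESeq2 and 17 to 11177 without 1 replicate, the latter without KD3. For the lists, alternatives were added after seeing the data. Depth limits all statements on the 6 genes below 1 CPM.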
